A study of Mus musculus with 36 samples.

Results

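The loci described here are those of the 5 genes that encode the subunits of the IL-12 cytokine family in the mouse, Il12a, Il12b, Il23a, Il27 and Ebi3. Members are the ATAC-seq peaks whose interval overlaps the body of 1 of these genes or 25 kb to either side of it. The rule found 61 of the 119751 peaks in the count table: 10 at Il12a, 12 at Il12b, 9 at Il23a, 15 at Il27 and 15 at Ebi3. ATAC-seq measures open chromatin by the insertions of a transposase, so each value below is the accessibility of a stretch of DNA and not the expression of a gene.

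Accessibility was measured in dendritic cells grown with GM-CSF from the bone marrow of female C57BL/6J mice 6 to 8 weeks old (strain label C57BL/6), in all groups alike. Cells received ligands of pattern recognition receptors for 6 h, and each of the 18 groups has 2 libraries. The groups are a control without ligand (Ctrl) and 6 single ligands. In the labels' names, P is PAM, L is LPS (bacterial lipopolysaccharide), H is HMW, S is SeV, cG is 3',3'-cGAMP (a bacterial cyclic dinucleotide) and Z is a depleted zymosan (a yeast cell wall preparation). A further 8 groups received the pairs PL, PH, LH, PS, PcG, ScG, ZS and ZcG, and 3 groups the triplets PLH, PScG and ZScG. PAM, HMW and SeV are not spelled out in the labels, and doses are not given there. Nothing in the labels ties the libraries of a group to separate mice or cultures, so p-values measure the spread between these libraries, which may be technical.

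The IL-12 family is built from shared chains. IL-12 pairs the p35 chain (Il12a) with the p40 chain (Il12b), and IL-23 pairs the p19 chain (Il23a) with the same p40. IL-27 pairs the p28 chain (Il27) with EBI3, a chain that also joins p35 in IL-35. Dendritic cells secrete these cytokines after sensing microbes. IL-12 drives T cells toward interferon-gamma production, IL-23 sustains IL-17-producing T cells, and IL-27 acts on T cells with both activating and restraining effects. The Il12b promoter is a classical target of c-Rel, C/EBP and PU.1 family factors, and Il27 and Ebi3 are known targets of NF-kB and interferon regulatory factors.

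The promoter sequences are shown because each lies wholly inside a member peak that was measured over all 18 groups. They run from 250 bases before to 50 bases after the start site, on the plus strand, from RefSeq on GRCm38.p6. They cover chr3:68691174-68691473 for Il12a, chr11:44399813-44400112 for Il12b and chr17:55952373-55952672 for Ebi3. Capitals mark every match, on either strand, to the 7 motifs searched; overlapping matches run together.
Il12a: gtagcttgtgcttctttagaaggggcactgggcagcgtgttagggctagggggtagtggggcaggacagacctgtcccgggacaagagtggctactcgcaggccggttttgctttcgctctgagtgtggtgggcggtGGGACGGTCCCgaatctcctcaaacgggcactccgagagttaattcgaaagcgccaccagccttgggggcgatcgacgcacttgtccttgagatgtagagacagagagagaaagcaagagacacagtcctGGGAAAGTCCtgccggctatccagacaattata
Il12b: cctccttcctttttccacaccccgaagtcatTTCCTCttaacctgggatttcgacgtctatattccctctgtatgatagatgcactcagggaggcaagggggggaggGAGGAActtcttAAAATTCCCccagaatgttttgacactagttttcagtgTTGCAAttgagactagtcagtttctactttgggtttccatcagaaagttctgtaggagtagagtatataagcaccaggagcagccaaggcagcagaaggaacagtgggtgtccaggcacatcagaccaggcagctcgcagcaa
Ebi3: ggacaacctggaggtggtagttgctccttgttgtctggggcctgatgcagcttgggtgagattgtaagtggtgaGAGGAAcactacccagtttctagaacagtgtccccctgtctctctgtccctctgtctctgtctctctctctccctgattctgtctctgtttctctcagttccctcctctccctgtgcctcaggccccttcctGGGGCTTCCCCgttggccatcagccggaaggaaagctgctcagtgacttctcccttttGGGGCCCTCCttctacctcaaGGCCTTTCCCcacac
The motifs were GGGNNNNNCC (NF-kB consensus, in 50.8% of the 32851 promoters of this length in the table), GGGNNTTTT (c-Rel type, 4.75%), TTGCAA (C/EBP core, 6.23%), GAGGAA (PU.1 core, 28.3%), TGANTCA (AP-1, 7.81%), GAAANNGAAA (ISRE core, 3.44%) and GGAANNGAAA (IRF and ETS composite, 2.72%). The Il12b window holds the c-Rel type motif on the reverse strand from -131, counted from the start site, TTGCAA from -93, and GAGGAA on both strands, from -143 and -219. The Il12a window holds 3 matches to GGGNNNNNCC and the Ebi3 window 6, counted over both strands with their overlaps, beside 1 GAGGAA. Neither interferon motif nor the AP-1 motif matched in these windows. A match describes letters only. A second annotated Il12a start site, at 68690644, lies in no peak. Il23a and Il27 have no entry in the promoter table.

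Total counts ranged from 19097027 to 39977088 per library, and 8181254 to 21985891 after the single mitochondrial peak was left out. That peak held 44.1% to 63.1% of the counts. Its group mean was 58.27% to 62.95% in Ctrl, Z, ZcG, ScG and ZScG and 44.38% to 54.55% in the other 13 groups, so for these 13 the effect of the stimulation and of this share cannot be told apart in a comparison with control. The same holds for 7 of the 8 pair interactions, for 4 of the 16 comparisons of a pair with a single ligand (ScG with S and cG, ZcG with cG, ZS with Z) and for 2 of the 9 of a triplet with a pair (PScG with ScG, ZScG with ZS). This grouping rests on group means, and the 2 ZS libraries, counted with the lower groups, held 58.11% and 50.98%. The first of them lay above ScG replicate 1 (57.25%) and ZScG replicate 1 (57.88%). The single ligands compared directly below, all in the lower groups, also differed in this share, from 44.38% in L to 51.63% in H. The tests between them did not account for it. Within the 5 groups of high share, fitted on their own with 56 of the 61 members tested, the counts of members called against control were 20 higher and 3 lower for ScG (25.8% of all peaks called in either direction), 17 and 4 for ZScG (30.6%), 13 and 3 for ZcG (19.8%), and 2 and 1 for Z (4.43%). In the full fit they were 20 and 3, 18 and 4, 16 and 3, and 3 and 1. ZcG against Z gave 4 higher and 1 lower in the fit of these groups alone (7.41%), and 8 and 2 in the full fit. Dendritic cell marker loci had peaks at 6 of 7 genes (none at Cd209a), with summed levels from 231.9 CPM in Ctrl to 307.2 CPM in PScG. Macrophage and monocyte loci had peaks at 7 of 7 genes (230.0 CPM in ZcG to 288.9 CPM in L) and neutrophil loci at 4 of 6 (31.3 CPM in ZScG to 55.17 CPM in P, with none at Ly6g or Ngp). Mast cell loci had peaks at 1 of 5 genes, and B cell loci at 4 of 5, none of them at a gene start. T and NK cell loci had peaks at 4 of 5 genes. Their part in the results was not tested.

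All 61 members passed the filter on low counts, among 119464 peaks tested. Against control, members were called changed (adjusted p under 0.05) in 365 of 1037 combinations of peak and stimulation, 313 higher and 52 lower. That is 35.2% of the members' tests, against 25.2% for all peaks. Calls were higher in 30.2% of the members' tests against 13.0% of all tests, and lower in 5.01% against 12.3%. The loci differed among themselves. At Il27, 51.0% of the tests were called higher and 13 of 15 peaks rose with at least 1 stimulation. The share of higher calls was 31.4% at Il23a, 30.6% at Ebi3, 18.1% at Il12b and 11.8% at Il12a. Peaks that fell were found at Il12b (4 of 12), Il12a (3 of 10) and Ebi3 (2 of 15) and at neither Il23a nor Il27, and 17 of the 61 members were never called. The never-called members had lower levels, with a median of 1.28 CPM against 5.54 CPM for the called ones.

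By single ligand, S changed 21 members upward and 4 downward (background 27.9% called in either direction). The counts were 18 and 3 for cG (23.3%), 17 and 2 for L (22.3%), 15 and 4 for P (20.5%), 10 and 1 for H (10.7%), and 3 and 1 for Z (5.91%). The triplet PScG changed the most members of any stimulation, 29 upward and 5 downward (37.1%). The share of members called was above that of all peaks for each of these 7 stimulations, and for Z by little, at 6.56% of members.

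**Figure D1:**
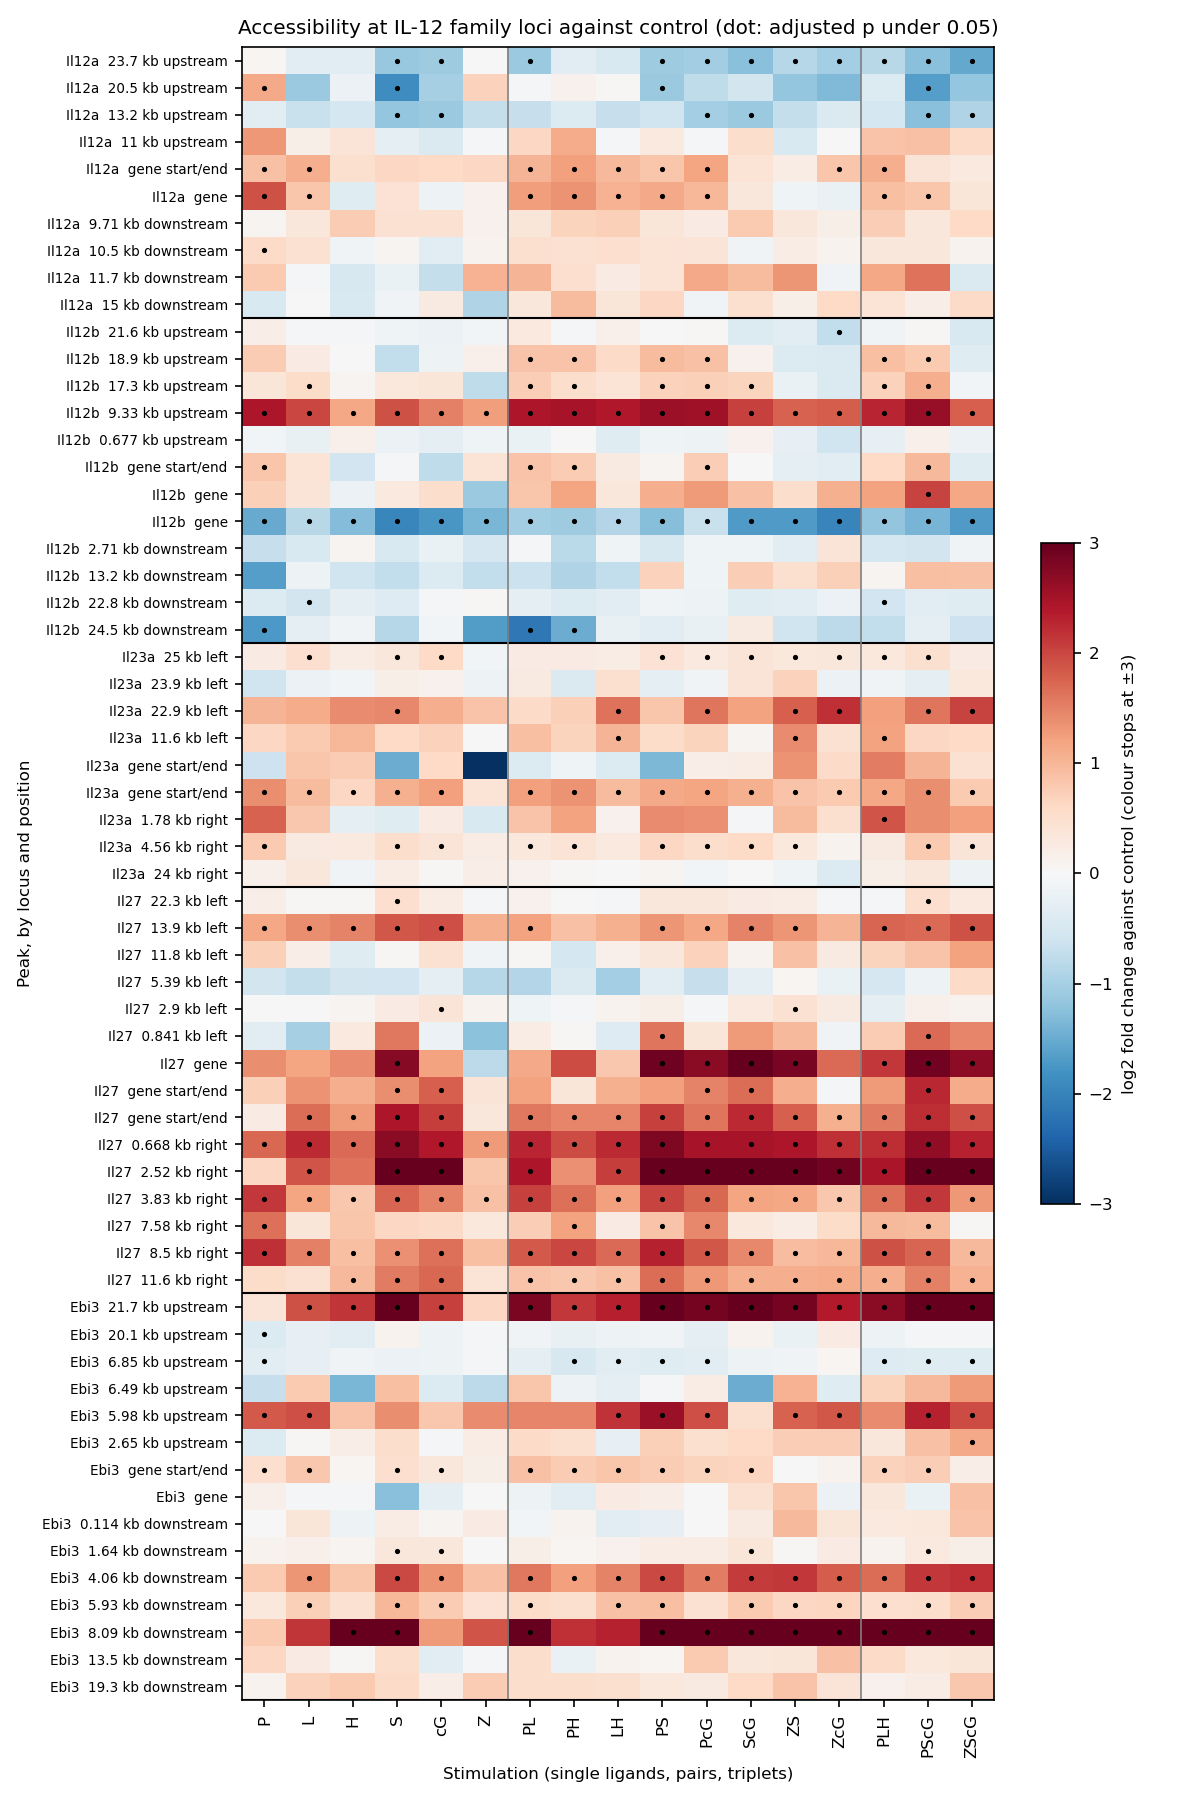
Fitted log2 fold change against control for each of the 61 peaks (rows, by locus and position) under each of the 17 stimulations (columns), with a dot where the adjusted p was under 0.05. The Il27 block is red over most of its lower rows, whereas Il12a and Il12b hold both red and blue rows; the dark blue Il23a cell under Z comes from 2 libraries with 0 counts.

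At Il12b, the gene of the shared p40 chain, the strongest response lay outside the gene. The peak 9.33 kb upstream of the start site (chr11:44389800-44390733, mm10) held 6.56 and 6.85 CPM in the control libraries. It held 36.9 and 35.5 CPM with P, 27.5 and 26.8 CPM with L, 24.9 and 25.5 CPM with S, 19.1 and 19.3 CPM with cG, 13.7 and 16.5 CPM with H, and 14.7 and 17.1 CPM with Z. All 34 stimulated libraries lay above both controls, from 13.72 to 41.83 CPM. It was called higher in all 17 comparisons, with log2 fold changes of 2.43 ± 0.15 (SE) for P, 2.01 ± 0.15 for L, 1.91 ± 0.15 for S, 1.51 ± 0.16 for cG, 1.25 ± 0.17 for Z and 1.16 ± 0.16 for H. Of these, H gave the highest adjusted p, 6.7e-09 by edgeR's quasi-likelihood test.

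Compared directly, without any control library, P exceeded L at this upstream peak by 0.42 ± 0.12 (adjusted p = 0.0086), S by 0.52 ± 0.12 (adjusted p = 0.00021) and cG by 0.92 ± 0.12 (adjusted p = 2.1e-10). The P-L difference was not called with scaling by total counts (adjusted p = 0.085). L and S were not called different, at 0.11 ± 0.12 (adjusted p = 0.67), although both L libraries lay above both S libraries. The SE comes from the fit of all 18 groups together. L exceeded H by 0.85 ± 0.13 (adjusted p = 1.1e-07).

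A second ligand added little to P at the upstream Il12b peak. The 4 pairs that contain P held 32.9 to 40.2 CPM per library, beside 36.9 and 35.5 CPM with P alone, and none of them was called different from P. The differences were 0.00 ± 0.12 for PL, 0.04 ± 0.12 for PH, 0.11 ± 0.11 for PcG and 0.14 ± 0.11 for PS. The same pairs did exceed several partner ligands alone: PH exceeded H by 1.31 ± 0.12, PcG exceeded cG by 1.02 ± 0.12 and PS exceeded S by 0.66 ± 0.12. On the log2 scale, the departure of each pair from the sum of its 2 single effects was negative for all 8 pairs. It ran from -0.76 ± 0.20 for L with H (adjusted p = 0.066 without Ctrl replicate 1) to -2.02 ± 0.19 for P with L. A sum on this scale is a product of folds, and sums of CPM were not tested. Mean CPM was 6.703 in control, 27.14 with L, 15.09 with H and 35.65 with LH. PScG reached 40.9 and 41.8 CPM and exceeded ScG by 0.57 ± 0.12 (adjusted p = 0.00061), a comparison of 45.06% with 59.35% mitochondrial share.

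The Il12b start-site peak (chr11:44399615-44400275), which holds the promoter printed above, responded to fewer ligands. It held 5.03 and 3.18 CPM in control, 8.32 and 6.21 CPM with P, 4.65 and 3.2 CPM with S, and 1.43 and 3.3 CPM with cG. The libraries of the first 2 groups do not overlap, and those of S overlap with control. Calls against control were limited to P (0.83 ± 0.29, adjusted p = 0.027), PL, PH, PcG and PScG. Each was lost in 1 to 3 of 10 alternative settings, the P call without Ctrl replicate 2 (adjusted p = 0.35). P exceeded cG here by 1.59 ± 0.30 (adjusted p = 5.3e-06) and S by 0.89 ± 0.27 (adjusted p = 0.0084), in all 8 settings each.

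Peaks further upstream of Il12b and at its far end moved differently. The peak 18.9 kb upstream was called higher in 6 combinations, each of which contains P, for example PS by 0.94 ± 0.29 (adjusted p = 0.063 without Ctrl replicate 2), and P exceeded S there by 1.50 ± 0.30 (adjusted p = 3.2e-05). The peak 17.3 kb upstream rose in 8 comparisons, by up to 1.09 ± 0.21 with PScG. The peak that spans the 3′ end of Il12b (chr11:44414669-44415810) fell in all 17 comparisons. It held 10.4 and 10.8 CPM in control, and every stimulated library lay lower, between 2.337 and 7.117 CPM. Its fold change was -1.95 ± 0.28 with S, -1.74 ± 0.28 with cG and -1.51 ± 0.27 with P, and the calls for L, LH and PcG were lost without Ctrl replicate 2 and in 1 to 3 other settings, with adjusted p up to 0.45. The peak 0.677 kb upstream of the start was never called.

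**Figure D2:**
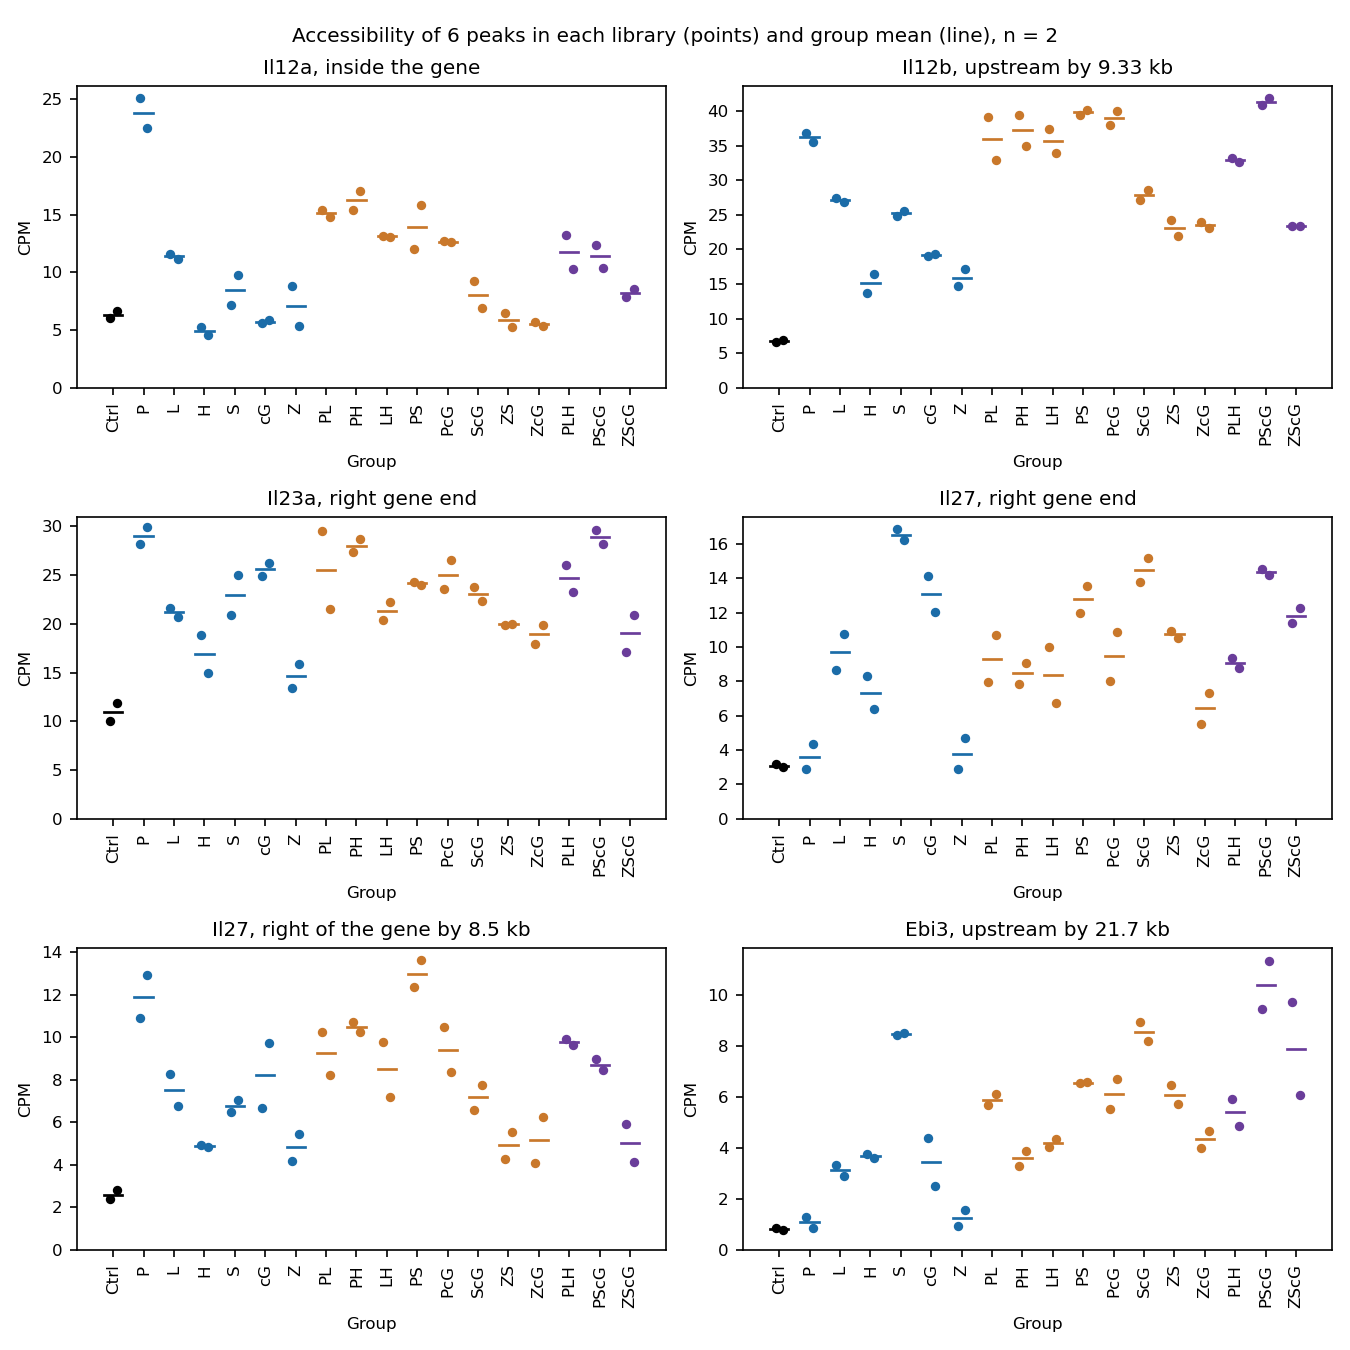
Accessibility in CPM (linear axis from 0) of 6 member peaks in every library, with each group's mean as a line; black is control, blue single ligands, orange pairs and purple triplets. The Il12a and Il12b peaks are highest with P among single ligands, whereas the Il27 gene-end peak and the Ebi3 upstream peak are highest with S and sit near control with P.

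At Il12a, which encodes p35, P stood apart from the other ligands at a peak inside the gene. The peak inside the gene (chr3:68692895-68694139) held 6.01 and 6.66 CPM in control, 25.1 and 22.5 CPM with P, 11.6 and 11.2 CPM with L, and 7.2 and 9.78 CPM with S. With cG it held 5.57 and 5.88 CPM and with H 5.27 and 4.57 CPM. Both P libraries lay above every other library of the study. The rise was 1.91 ± 0.20 with P (adjusted p = 1.1e-15) and 0.84 ± 0.21 with L (adjusted p = 0.00093), and S, cG, H and Z gave no call.

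P exceeded every other single ligand compared at this Il12a peak: H by 2.26 ± 0.20, cG by 2.05 ± 0.19, S by 1.48 ± 0.18 and L by 1.07 ± 0.17, in all 8 settings each. Adding another ligand to P lowered it. PcG changed it by -0.91 ± 0.17 (adjusted p = 2.1e-05), PS by -0.76 ± 0.17 (adjusted p = 0.00027) and PL by -0.65 ± 0.18 (adjusted p = 0.0069). PH differed from P by -0.55 ± 0.17, which missed the threshold (adjusted p = 0.052). All 4 pairs were higher than control, by 1.00 ± 0.20 to 1.36 ± 0.20.

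**Figure D3:**
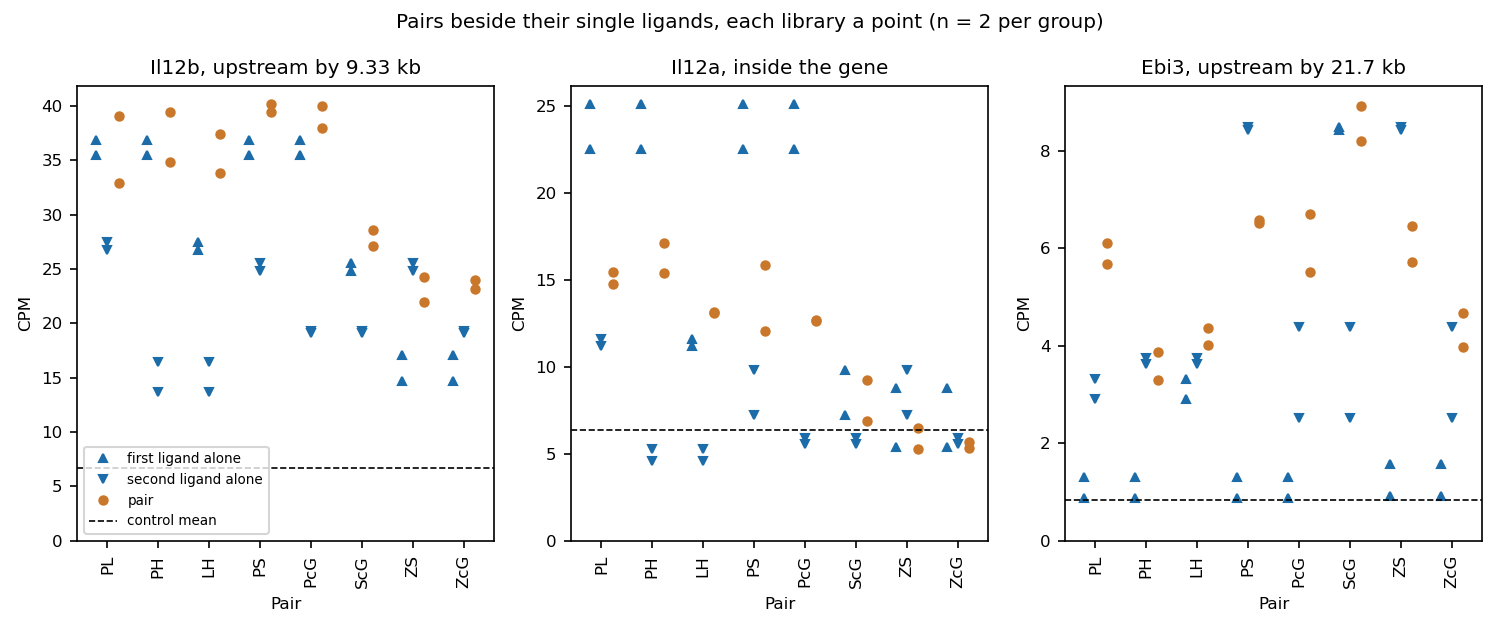
CPM in each library of the 8 pairs (orange) and of their 2 single ligands (blue triangles) at 3 peaks, with the control mean dashed. At the upstream Il12b peak the pairs with P sit at the level of P, at the Il12a peak inside the gene they sit below P, and at the upstream Ebi3 peak the 4 pairs with P sit above P.

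Of the 8 Il12a peaks outside the gene, 3 were called lower with S and 2 of these with cG, and the other 5 were called lower in no comparison with control. The lead peak by the number of comparisons called, 23.7 kb upstream (chr3:68666337-68666937), held 6.66 and 5.21 CPM in control, 5.72 and 6.64 CPM with P, 4.59 and 7.13 CPM with Z, 2.75 and 2.64 CPM with S, and 2.94 and 2.72 CPM with cG. It fell in 11 comparisons, for example S by -1.13 ± 0.32 and cG by -1.06 ± 0.32. Both calls were lost without Ctrl replicate 1 and with total counts, with adjusted p up to 0.078 for S and 0.13 for cG. P exceeded S by 1.20 ± 0.31 (adjusted p = 0.0013). A peak 20.5 kb upstream, picked out after its values were seen, moved in opposite directions. It held 1.53 and 3.09 CPM in control, 4.96 and 5.27 CPM with P, and 0.458 and 0.8 CPM with S. With Z it held 3.28 and 4.2 CPM, above both controls but not called. It rose by 1.13 ± 0.41 with P (adjusted p = 0.035) and changed by -1.87 ± 0.50 with S (adjusted p = 0.0019). The P call was lost without Ctrl replicate 1 (adjusted p up to 0.35) and the S call without Ctrl replicate 2 (adjusted p = 0.16). P exceeded S by 3.00 ± 0.46 (adjusted p = 2.3e-08) in all 8 settings.

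The Il12a peak over the start site at 68691424 (chr3:68690995-68691770) rose in 9 comparisons, among them L by 1.09 ± 0.28 and PcG by 1.17 ± 0.28. P was also called higher than control at this peak. Its libraries held 8.09 and 4.55 CPM with P, beside 3.5 and 3.38 CPM in control. None of the 10 comparisons between single ligands was called there. The peak 13.2 kb upstream fell in 6 comparisons, for example S by -1.16 ± 0.31 and cG by -1.12 ± 0.31, both lost without Ctrl replicate 1 (adjusted p = 0.25 and 0.31).

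At Il23a, which encodes p19, the response was shared by most ligands. The peak over the right end of the gene (chr10:128297804-128299282), within 1 kb of Gm23241, held 10.1 and 11.9 CPM in control, 28.2 and 30 CPM with P, 24.9 and 26.3 CPM with cG, 20.9 and 25 CPM with S, 21.6 and 20.8 CPM with L, and 18.9 and 15 CPM with H. All 34 stimulated libraries lay above both controls. It rose in 16 comparisons, by 1.40 ± 0.15 with P, 1.22 ± 0.15 with cG, 1.06 ± 0.15 with S, 0.94 ± 0.15 with L and 0.63 ± 0.15 with H. The H call was lost without Ctrl replicate 1 (adjusted p = 0.084). Z, at 13.4 and 15.8 CPM, differed from control by 0.42 ± 0.17, which was not called (adjusted p = 0.12). P exceeded H by 0.77 ± 0.14 in all 8 settings, and its excesses over L (0.46 ± 0.13) and S (0.34 ± 0.13) held in 6 of 8 each.

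Most other Il23a-window peaks overlap other genes. The peak 4.56 kb to the right, which overlaps Pan2, held 28.3 and 28.5 CPM in control and 47.4 and 51 CPM with P. It rose in 11 comparisons, by 0.79 ± 0.12 with P. A peak at the left border of the window, which overlaps Apof and Stat2, rose in 10 comparisons, by 0.60 ± 0.12 with cG and 0.51 ± 0.12 with L. STAT2 is a transducer of type I interferon signals. The peak 22.9 kb to the left, which overlaps Stat2, rose in 7, by 2.20 ± 0.57 with ZcG. The small peak inside Il23a had 0 counts in both Z libraries, 10 and 14 counts in the ZS libraries and 5 and 4 in control, and no call against control. It was called higher in ZS and ZcG than in Z, and no fold is given against a group at 0.

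At Il27, the gene of the p28 chain, 5 of the 6 peaks to the right of the gene rose in 13 to 17 of the 17 comparisons and the peak at 7.58 kb in 6, and single ligands ranked differently from peak to peak. The peak 0.668 kb to the right (chr7:126595703-126596865) held 1.09 and 2.03 CPM in control, 10.2 and 10.5 CPM with S, 7.72 and 9.03 CPM with cG, 7.21 and 7.71 CPM with L, 4.88 and 5.56 CPM with P, 4.7 and 5.69 CPM with H, and 2.62 and 4.93 CPM with Z. It rose in all 17 comparisons, by 2.70 ± 0.29 with S, 2.40 ± 0.30 with cG, 2.23 ± 0.30 with L, 1.72 ± 0.32 with P, 1.70 ± 0.32 with H and 1.28 ± 0.35 with Z. The Z call was lost without Ctrl replicate 1 and after thinning to one depth (adjusted p up to 0.23). P lay below S by -0.98 ± 0.23 (adjusted p = 0.00026).

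The neighbouring peak over the right end of Il27 itself (chr7:126594463-126595657) stayed near control with P and Z. It held 3.17 and 2.99 CPM in control, 2.9 and 4.33 CPM with P, 16.9 and 16.2 CPM with S, 14.2 and 12 CPM with cG, 8.69 and 10.8 CPM with L, 8.32 and 6.38 CPM with H, and 2.89 and 4.72 CPM with Z. P and Z overlapped with control, and the other 4 did not. The change was 2.42 ± 0.24 with S, 2.08 ± 0.24 with cG, 1.67 ± 0.25 with L and 1.27 ± 0.26 with H, and it was not called for P (0.24 ± 0.28, adjusted p = 0.61) or Z (0.33 ± 0.30, adjusted p = 0.60). P against S was -2.19 ± 0.22 (adjusted p = 4.1e-17). The pair PS exceeded P by 1.82 ± 0.22.

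Moving away from the gene to the right, the order of P and S changed from peak to peak. Of the peaks in this stretch, those at 2.52, 7.58 and 11.6 kb were picked out after their values were seen. At 2.52 kb, control held 0.437 and 0.289 CPM (4 and 3 counts), P 0.916 and 0.217 CPM, S 5.17 and 5.04 CPM and cG 3.82 and 3.65 CPM, and P against S was -3.17 ± 0.43 (adjusted p = 2.4e-10). At 3.83 kb, P held 13.2 and 14.7 CPM and S 10.7 and 11 CPM, against 2.29 and 4.05 CPM in control. This peak rose in all 17 comparisons, Z being lost in 5 of 11 settings, among them without Ctrl replicate 1, and P against S was 0.36 ± 0.19, not called (adjusted p = 0.17). At 7.58 kb and 8.5 kb P was the higher, by 1.02 ± 0.30 (adjusted p = 0.0052) and 0.81 ± 0.21 (adjusted p = 0.0015). At 8.5 kb P held 10.9 and 12.9 CPM, S 6.48 and 7.07 CPM and control 2.4 and 2.8 CPM. At 11.6 kb S was again the higher, with P against S at -1.02 ± 0.20 (adjusted p = 2.5e-05).

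The peak inside Il27 within 1 kb of its right end (chr7:126593699-126594187) rose in 5 comparisons, by 1.78 ± 0.54 with cG (adjusted p = 0.071 without Ctrl replicate 2) and 2.26 ± 0.52 with PScG. The peak 0.841 kb to the left, which overlaps Apobr, was called in PS and PScG alone and differed between P and S by -1.89 ± 0.65 (adjusted p = 0.021).

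**Figure D4:**
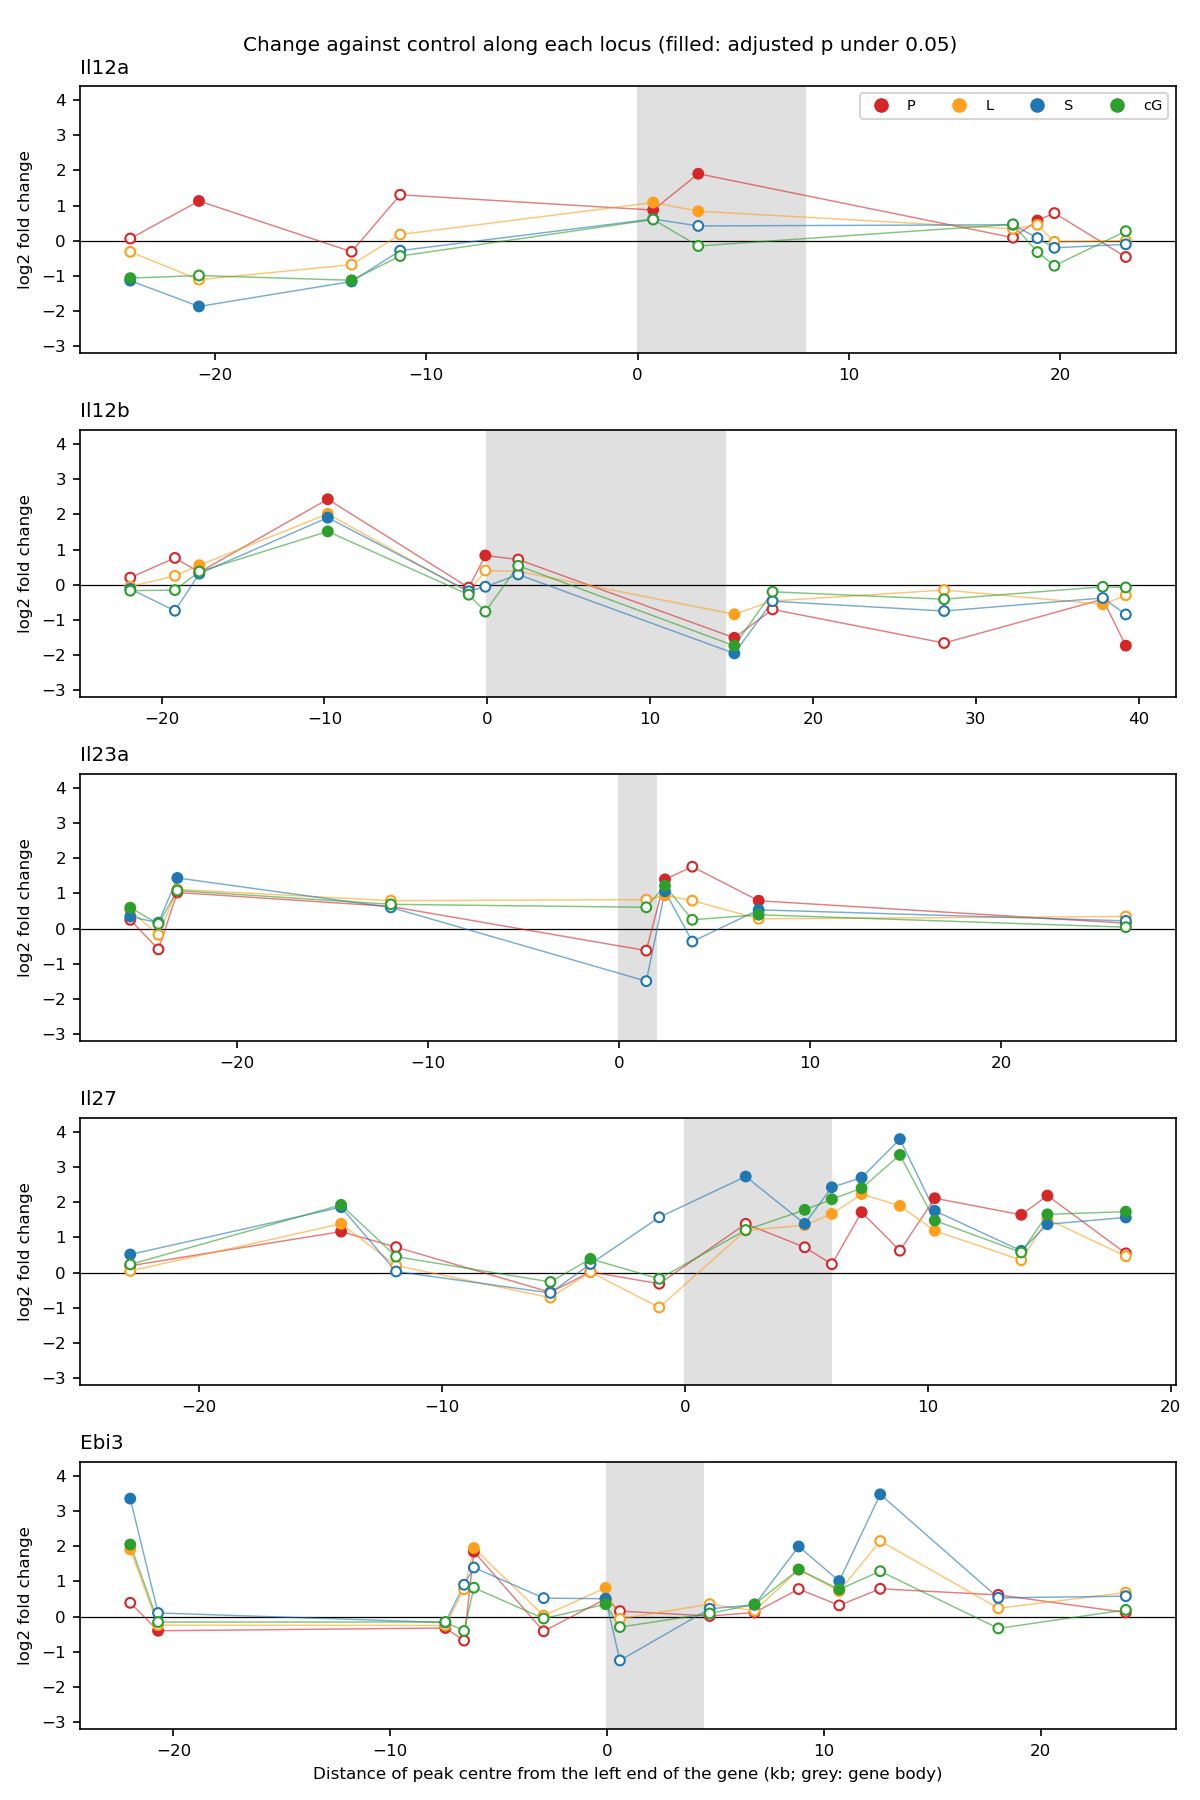
Log2 fold change against control of each peak with P, L, S and cG, by the distance of its centre from the left end of the gene in kb (filled points: adjusted p under 0.05; lines only join neighbouring peaks). To the right of Il27, S and cG are the highest up to 2.52 kb from the gene and P is the highest at 3.83 to 8.5 kb.

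At Ebi3, the chain shared by IL-27 and IL-35, the lead peak lay 21.7 kb upstream (chr17:55930312-55930954) and overlaps the gene model Gm41603. It held 0.874 and 0.772 CPM in control, 8.44 and 8.49 CPM with S, 4.38 and 2.51 CPM with cG, 3.75 and 3.62 CPM with H, 3.32 and 2.91 CPM with L, and 1.3 and 0.867 CPM with P. S was the highest single ligand, and P lay nearest to control. It rose in 15 comparisons, by 3.35 ± 0.36 with S, 2.16 ± 0.40 with H, 2.05 ± 0.40 with cG and 1.91 ± 0.40 with L. P (0.39 ± 0.48, adjusted p = 0.63) and Z (0.63 ± 0.51, adjusted p = 0.54) were not called.

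S exceeded cG at this Ebi3 peak by 1.31 ± 0.27 (adjusted p = 0.0011). H against S was -1.20 ± 0.26, and P against S was -2.96 ± 0.32 (adjusted p = 4.1e-15). Adding H, L, S or cG to P raised it, by 1.73 ± 0.34, 2.44 ± 0.34, 2.60 ± 0.32 and 2.49 ± 0.32. On the log2 scale, the departure from additivity of P with L was 0.53 ± 0.57 (adjusted p = 0.68), which was not called. For S with cG the departure was -2.03 ± 0.48 (adjusted p = 0.00085), and ScG differed from S alone by 0.02 ± 0.25.

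The Ebi3 start-site peak (chr17:55952024-55953081), which holds the printed promoter and also overlaps Zfp119b, ordered the ligands otherwise. It held 18.7 and 20.4 CPM in control, 32.4 and 36.2 CPM with L, 28.4 and 26.9 CPM with P, 29.1 and 26.4 CPM with S, and 20.7 and 19.8 CPM with H. It rose in 12 comparisons, by 0.81 ± 0.13 with L, 0.51 ± 0.13 with S and 0.50 ± 0.13 with P, whereas H (0.05 ± 0.14, adjusted p = 0.86) and Z were not called. L exceeded H by 0.76 ± 0.12 (adjusted p = 2.1e-06). ZS lay below S by -0.53 ± 0.13 (adjusted p = 0.0089).

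Of the 7 downstream Ebi3 peaks, 4 overlap Yju2. The peak at 4.06 kb held 1.75 and 1.74 CPM in control and 5.89 and 8 CPM with S, and rose in 14 comparisons, by 1.99 ± 0.31 with S. The peak at 5.93 kb rose in 12, by 1.01 ± 0.20 with S. P lay below S at both, by -1.21 ± 0.27 and -0.69 ± 0.18. All 15 Ebi3 members overlap the body of another gene. Of the 61 members in all, 29 do so, and 31 lie in or within 1 kb of another gene. Over the 5 loci, higher calls made up 32.9% of the tests at the 30 members away from other genes and 27.5% at the 31 in or near one.

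The remaining members are given by their counts, with a few picked out after their values were seen. The Il27-window peak 13.9 kb to the left, which overlaps Cln3, rose in 13 comparisons, by 1.92 ± 0.40 with cG and 1.86 ± 0.40 with S, both also called in all 10 alternatives. It held 1.64 and 0.772 CPM in control, 4.54 and 4.51 CPM with cG, and 3.47 and 5.17 CPM with S. Without control replicate 2, 8 of the 13 calls were lost. A peak inside Il27 had 4 and 0 counts in control, 7 and 8 with P, 23 and 22 with S, and 33 and 23 with ScG, and was called higher in 8 comparisons. Of those, 7 were lost without control replicate 2, and the ScG call held. The peak 8.09 kb downstream of Ebi3, which overlaps Yju2, had 2 and 0 counts in control and was called higher in 11 comparisons. No fold is given for either peak, since the control counts are so low. All 11 calls of the Ebi3 peak were lost without control replicate 2. The peak 5.98 kb upstream of Ebi3, which overlaps Zfp119b, rose in 9 comparisons, for example PS by 2.59 ± 0.64, from 1 and 6 counts in control. Only the PS call held without control replicate 1; the other 8 were lost. The peak 6.85 kb upstream of Ebi3, which also overlaps Zfp119b, fell in 8 comparisons by small amounts, for example PH by -0.48 ± 0.12. All 8 of these calls were lost with scaling by total counts, under which PcG, PS and PScG changed sign. Downstream of Il12b, the peak at 24.5 kb fell in 3 comparisons and the peak at 22.8 kb in 2, both overlapping Gm42073. The 3 calls were lost without control replicate 2, and the 2 without control replicate 1.

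The direct comparison of P with S gave opposite directions at different loci. Over the 10 comparisons among P, L, H, S and cG, members were called in 109 of 610 tests, 58 higher and 51 lower in the first-named ligand (17.9%, against 11.0% of all tests, 5.75% higher and 5.22% lower). P against S gave 13 members higher and 10 lower, where the background was 24.5% in either direction, 12.9% higher and 11.6% lower. The 13 that were higher with P were 6 of the 10 Il12a peaks, 3 of the 12 Il12b peaks, 2 of the 9 Il23a peaks and 2 of the 15 Il27 peaks. The 10 that were higher with S were 5 Il27 peaks and 5 Ebi3 peaks. P against cG gave 12 higher and 8 lower (23.8% in either direction, 12.7% higher, 11.1% lower), with 6 of the higher ones at Il12a. H against S gave 1 higher and 13 lower (9.06%). S and cG differed at 1 member, the upstream Ebi3 peak (0.949%).

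**Figure D5:**
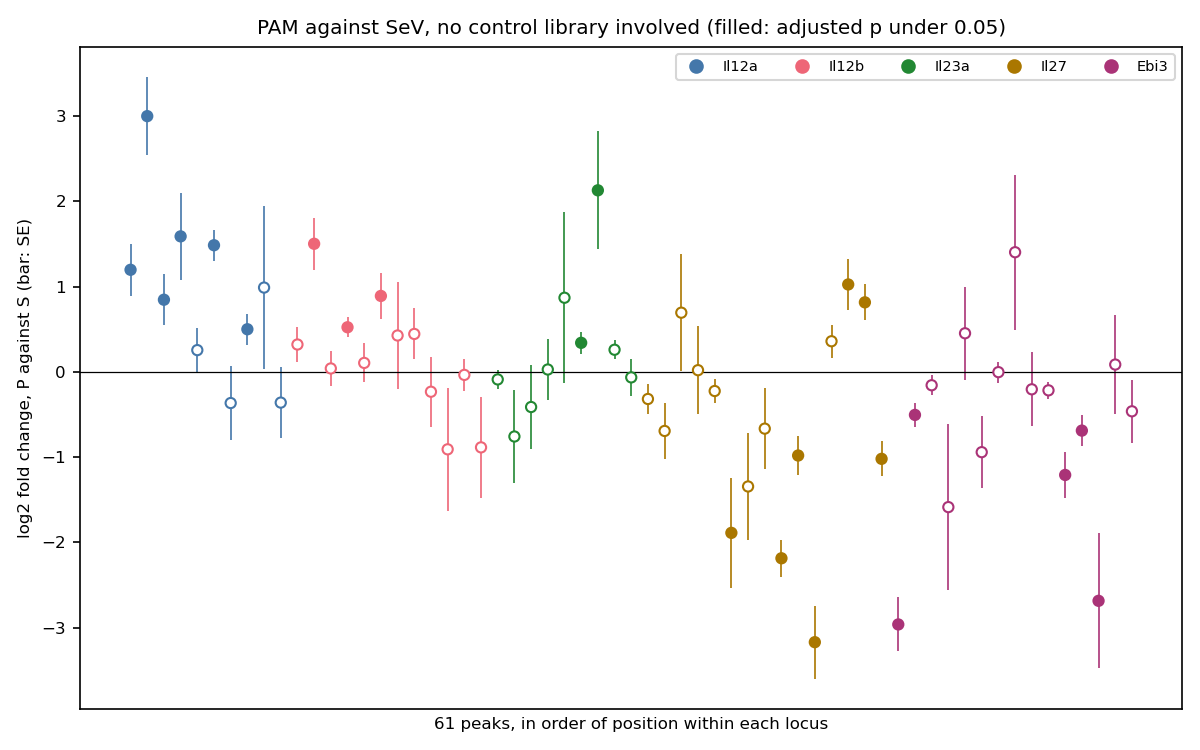
Log2 fold change of P against S for the 61 peaks, by locus and in order of position, with the SE as a bar and filled points where the adjusted p was under 0.05. Filled Il12a, Il12b and Il23a points all lie above 0, filled Ebi3 points all lie below 0, and Il27 has 2 above and 5 below.

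Pairs were compared with their single ligands in 16 contrasts. Members were called in 105 of 976 tests, 80 higher and 25 lower in the pair, or 10.8% against 6.48% of all tests (3.56% higher, 2.92% lower). Scaling by total counts gave 86 higher and 47 lower. PS against P gave the most, 12 higher and 5 lower (18.1%), and 5 of the 12 were at Il27 and 5 at Ebi3. Adding H to L called 0 members, where 0.0645% of all peaks were called (4 members at an unadjusted p under 0.05, and 1 called by DESeq2). Adding cG to S also called 0, where 0.579% of all peaks were called (7 unadjusted, 0 by DESeq2).

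Departures of pairs from the sum of the single effects, on the log2 scale, were called in 69 of 488 tests at the members. Of these, 10 were positive and 59 negative, or 14.1% against 5.18% of all tests (2.07% positive, 3.1% negative). The members' counts were 15 for S with cG (14.4%), 10 for P with S (4.59%), 9 for P with L (6.75%), 9 for P with cG (3.27%), 7 each for L with H (4.88%), Z with cG (2.49%) and Z with S (3.43%), and 5 for P with H (1.55%). All 8 use the same 2 control libraries. As grouped by mean, the groups of high mitochondrial share balance for Z with S alone. The shares themselves were 54.55% in ZS (58.11% and 50.98% by library), 61.67% in Z, 47.93% in S and 60.98% in control. They do not balance exactly, so this interaction is not fully separated from the share. For S with cG the shares were 59.35% in ScG and 60.98% in control, against 47.93% in S and 46.13% in cG, and for the other 7 pairs the interaction and the share cannot be told apart. Of the 10 positive ones, 7 were at the falling Il12b gene-end peak, for example 2.57 ± 0.39 for P with cG.

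Triplets were compared with their pairs in 9 contrasts, which called 5 of 549 tests at members, 4 higher and 1 lower, or 0.911% against 1.11% of all tests (0.497% higher, 0.61% lower). Scaling by total counts gave 18 higher and 0 lower. PScG exceeded ScG at 3 members (4.53%): the upstream Il12b peak by 0.57 ± 0.12, the Il12b start peak by 0.98 ± 0.29 and the Il27 peak at 3.83 kb by 0.94 ± 0.21. This contrast also sets a group of lower mitochondrial share against one of higher share. ZScG against ZcG gave 1 higher and 1 lower (2.79%), the Il27 gene-end peak at 0.87 ± 0.23 being the higher. The other 7 contrasts called 0 members, with 3 to 11 at an unadjusted p under 0.05 and 0 called by DESeq2. The share of all peaks called in them was 0.000837% for PLH against PL, 0.0586% for ZScG against ZS, 0.248% for PLH against PH, 0.412% for PScG against PcG, 0.546% for PLH against LH, 0.602% for PScG against PS and 0.772% for ZScG against ScG.

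Other genes of the pathway were measured at peaks in or within 1 kb of them. The receptor and signalling list (11 genes, all with peaks, 96 peaks) had 19 higher and 6 lower with S (27.9% of all peaks called) and 9 and 5 with P (20.5%), with median log2 fold changes of 0.19 and 0.14. Among its most often called peaks were 2 at Jak1, lower in all 17 comparisons (-1.15 and -1.24 with P). JAK1 is a kinase of the IL-27 receptor. The list of regulators in dendritic cells (19 genes, 140 peaks) had 34 higher and 4 lower with S and 27 and 5 with P, beside the same 27.9% and 20.5% of all peaks. Its 3 most often called peaks were at Nfkb1, which encodes the NF-kB p105 and p50 protein, and the first of them rose by 3.99 with P and 3.91 with S.

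The genes whose start-site peak varied most like each lead peak were found by Pearson's r of log2 CPM over the 18 group means, among 13635 start-site peaks; r is a description, and all points share libraries. For Il12b these were Tnfaip3 (0.95), which encodes the NF-kB inhibitor A20, Gm2774 (0.946) and Gm4606 (0.939). For Il27 they were 4933402J15Rik (0.951), Ccrl2 (0.947) and Grap (0.942), and for Ebi3 Klre1 (0.93), a peak at Ccl5 and Heatr9 (0.924) and Capn5 (0.919). For Il23a they were Gm33519 (0.905), Ago3 (0.904) and Pilrb1 (0.899), and for Il12a Hsd11b1 (0.934), 1600010M07Rik (0.912) and Gm46183 (0.907). Over the 36 libraries in place of group means, Tnfaip3, 4933402J15Rik and Gm33519 were again first for Il12b, Il27 and Il23a. The first was then the peak at Ccl5 and Heatr9 for Ebi3 (0.906) and Tmsb4x for Il12a (0.833), and Klre1 moved to rank 8 (0.848), Capn5 to rank 56 (0.774), Ago3 to rank 30 (0.761) and Hsd11b1 to rank 7 (0.792). Among the lead peaks themselves, r was 0.891 between Il12b and Il23a, 0.847 between Il27 and Ebi3, and -0.899 between Il12a and Ebi3. The Il12a lead peak is the one 23.7 kb upstream, which fell in 11 comparisons. Its r values do not stand for the Il12a peaks at the start site and inside the gene, which rose in 9 comparisons each.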

How the data were processed

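Accessibility was measured by ATAC-seq in 36 libraries of 18 groups. The authors deposited 1 table of counts, whole numbers that were not normalized, for every peak in every library. Bowtie2 (version 2.2.9), MACS2 (version listed as 1.4), bedtools, featureCounts and the build mm10 are named per the submitters' processing notes, with no role, and the handling of duplicates and of the transposase offset, and whether peaks were called on pooled libraries, are not given in the sources used here. Groups and replicate numbers come from the sample titles. Libraries were made from 50000 cells with 12 PCR cycles and carry no molecular identifiers.

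Peaks were assigned to genes with a RefSeq table on GRCm38.p6, which gives no strand for Il23a and Il27, so both gene ends were used there. Peak positions are as deposited and start at base 1. The mitochondrial peak was left out, and peaks with low counts were dropped with filterByExpr (minimum count 10), which removed 286. After TMM scaling, edgeR 4.0.16 (R 4.3.3) was run with its robust quasi-likelihood method, 1 coefficient per group and 18 residual degrees of freedom. Each of 60 contrasts was tested on 119464 peaks, with Benjamini-Hochberg adjustment over these. The 17 contrasts with control, 16 of a pair with a single ligand, 8 pair interactions and 9 of a triplet with a pair were set at the start, and the 10 between single ligands were added after seeing the data. CPM are counts per 1000000 TMM-scaled counts without the mitochondrial peak. SE is the log2 fold change divided by the square root of the F statistic. The fit was tested on simulated data.

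Peaks named are, for each gene, those at its start site and up to 4 called in the most comparisons with control; a few others are said to be picked out later. The members and lists were chosen with earlier results of these data known. Alternatives were other scaling, DESeq2 1.42.0, other filters and windows, thinning, a replicate block, and leaving out libraries. Replicate numbers did not pair the libraries: over 153 pairs of groups, the correlation of same-numbered deviations ranged from -0.04 to 0.03. The receptor and signalling list is given by its counts and by Jak1, and values of its other genes are not reported here.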

Additional observations from a re-analysis of the deposited data

Results flagged for a closer look

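In each result here the effect of 1 ligand, as a log2 fold change, differed with the presence of another. The measure was the pair interaction AB - A - B + control on the log2 scale, in edgeR's quasi-likelihood test. Effects in CPM were not tested. The count of member peaks with such a difference was 7 for L with H (4.88% of all peaks), 9 for P with cG (3.27%), 5 for P with H (1.55%), 9 for P with L (6.75%), 10 for P with S (4.59%), 15 for S with cG (14.4%), 7 for Z with cG (2.49%) and 7 for Z with S (3.43%). All share the 2 control libraries, and in all but Z with S the groups of high mitochondrial share do not balance. For Z with S they balance only as grouped by mean, since the ZS libraries held 58.11% and 50.98%. Of the 69 interaction calls at members, 36 were kept in every setting tested.

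At the upstream Il12b lead peak the difference was -0.76 for L with H, -1.41 for P with cG, -1.12 for P with H, -2.02 for P with L, -1.77 for P with S, -1.37 for S with cG, -0.95 for Z with cG and -1.38 for Z with S (log2). The call for L with H was lost without Ctrl replicate 1. At the Il23a gene-end lead peak it was -1.44 for P with cG, -1.12 for P with L, -1.33 for P with S, -1.21 for S with cG and -0.85 for Z with cG.

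At the Il27 lead peak it was -1.70 for L with H, -1.65 for P with cG, -1.46 for P with H, -1.67 for P with L, -1.61 for P with S, -2.63 for S with cG, -1.48 for Z with cG and -1.55 for Z with S. At the upstream Ebi3 lead peak it was -1.73 for L with H and -2.03 for S with cG.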

How the results depend on the processing

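With the 12 peaks in gene bodies alone the counts were 97 against control (47.5% of tests, where all members gave 365 or 35.2%), 31 for pairs against singles (16.1%, where all gave 105), 19 for interactions (19.8%, 69), 2 for triplets (1.85%, 5) and 30 between single ligands (25.0%, 109). Peaks with no other gene within 1 kb gave 206 calls against control (40.4%). A 10 kb window gave 68 for pairs against singles and 72 between single ligands, and a 50 kb window 8 for triplets. Scaling by total counts moved the median of all peaks by -0.0394 to 0.452 against control and by -0.648 to -0.14 for interactions, and gave 115 interactions (7 positive, 108 negative) and 18 triplet calls (18 higher, 0 lower), and thinning to one depth gave 2 triplet calls. ZcG against Z, the only comparison of a pair with a single ligand within the groups of high mitochondrial share, gave 5 calls there and 10 in the full fit. Leaving out Ctrl replicate 1 or 2 gave 296 and 284 calls against control and 46 and 58 interactions. The causes were not tested.

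With a replicate block the counts were 365, 103, 71, 5 and 109; the numbers do not pair the libraries. Of the 365 calls against control, 209 were kept in every setting tested, and 3, all at the Ebi3 peak 6.85 kb upstream, changed sign in one. The calls kept in every setting were 70 of 105 for pairs against singles, 36 of 69 for interactions, 2 of 5 for triplets and 80 of 109 between single ligands. At the lead peaks and counts, 513 of 550 alternative values kept their call or lay close to the value reported, 28 moved, 9 fell below the threshold and 0 reversed. The lead peaks were chosen by their number of calls against control, so these values do not describe the other members. The SE includes the spread between libraries, and members at low counts have wide errors.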
